A study of Mus musculus with 16 samples.

Results

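The diet by MBV interaction asks of every expressed gene whether matrix-bound nanovesicles (MBV) moved its liver mRNA by a different amount on an ethanol diet than on a control diet. It was taken as (EtOH+MBV − EtOH) − (PF+MBV − PF) on the log2 scale, and it used all 16 of the 16 libraries of the study, 4 in each of 4 groups. A positive value means that the change with MBV was more upward, or less downward, on the ethanol diet than on the control diet. A negative value means the reverse.

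PF libraries came from control mice that were pair-fed, so that their intake was matched to that of the ethanol-fed mice, and that received vehicle. EtOH libraries came from vehicle-treated mice on the ethanol-containing diet of the NIAAA model, which joins chronic with binge drinking. The PF+MBV and EtOH+MBV groups had these same diets, with MBV in place of vehicle. The sources used here give no strain, age, sex, MBV source, dose or timing. Nor do the labels say that each library of a group is a mouse of its own, and the p-values therefore describe the spread between these samples, which may be technical.

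MBV are small lipid vesicles that are lodged within the extracellular matrix of tissues and carry RNA and protein. Hepatocytes, the main cells of the liver, oxidise ethanol and in doing so meet oxidative stress, altered lipid synthesis and altered protein turnover. NRF2 is the transcription factor that drives antioxidant genes through the antioxidant response element, and SREBP2 drives cholesterol synthesis genes through the sterol regulatory element when sterols are low.

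The libraries held 15271344 to 20493181 counts in genes. The first principal component of log2 CPM, where CPM is a count scaled to the size of its library, held 49.8% of the variance and parted the diets, with a single library in between: EtOH+MBV 1 lay at -0.25 on it, while the rest of its group lay at 41.2 to 49.6. EtOH 1 stood apart on the second component, at -74.2, where the other 3 EtOH libraries lay at -17.8 to 11.6. EtOH 1 also had the highest summed level of the 10 tested monocyte and recruited macrophage markers, 199 CPM against 68.1 to 112 CPM in the other 15 libraries. The median SD of a gene over the 4 libraries of a group, on the log2 scale, was 0.20 in PF, 0.14 in PF+MBV, 0.29 in EtOH and 0.24 in EtOH+MBV, whereas the fit used 1 spread per gene for all 4 groups. The 10 tested hepatocyte markers, with albumin (Alb) at their head, summed to 95415 to 158379 CPM in the 16 libraries, and 0 of the 10 had a called interaction.

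Of 12901 tested genes, 530 had an interaction at an adjusted p under 0.05, which is 4.11% of those tested. Of these, 261 were positive (2.02%) and 269 were negative (2.09%), and 317 had an interaction of at least 2-fold. Their absolute log2 values ran from 0.41 to 6.72 with a median of 1.15, while the median interaction over all tested genes was 0.00. Adjusted p-values here and below come from the quasi-likelihood test of edgeR, adjusted by the Benjamini-Hochberg method over all genes tested. The ± on a log2 value is its standard error (SE, n = 4 per group). It was worked back from that test, as the absolute log2 value over the square root of its F statistic. A log2 value in parentheses directly after a gene name is its interaction, unless it is named otherwise. The smallest adjusted p of the interaction was 0.00458. Hmgb2, Zfp385b and Sf3b2 lay just inside the limit (adjusted p 0.0498 to 0.05), and Prkca, Zfp318 and Cd2bp2 just outside it (adjusted p 0.05 after rounding).

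The number of called genes moved with single libraries. It was 168 without PF 1, 187 without PF 3 and 300.0 without PF 4, but 853 without PF 2. Without a PF+MBV library it was 207, 190.0, 270.0 and 169 for libraries 1 to 4. Leaving out EtOH 2 gave 266 and EtOH 4 gave 1088. The count was 343 without EtOH+MBV 2 and 192 without EtOH+MBV 3. Without both libraries that stand apart, EtOH 1 and EtOH+MBV 1, 887 genes were called, among them 466 of the 530. None of the 530 changed sign in any of the 16 fits that left out 1 library, and 133 were called in each of them. The 530 were picked for their interaction in these same libraries, so the kept signs were largely set by that choice.

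**Figure D1:**
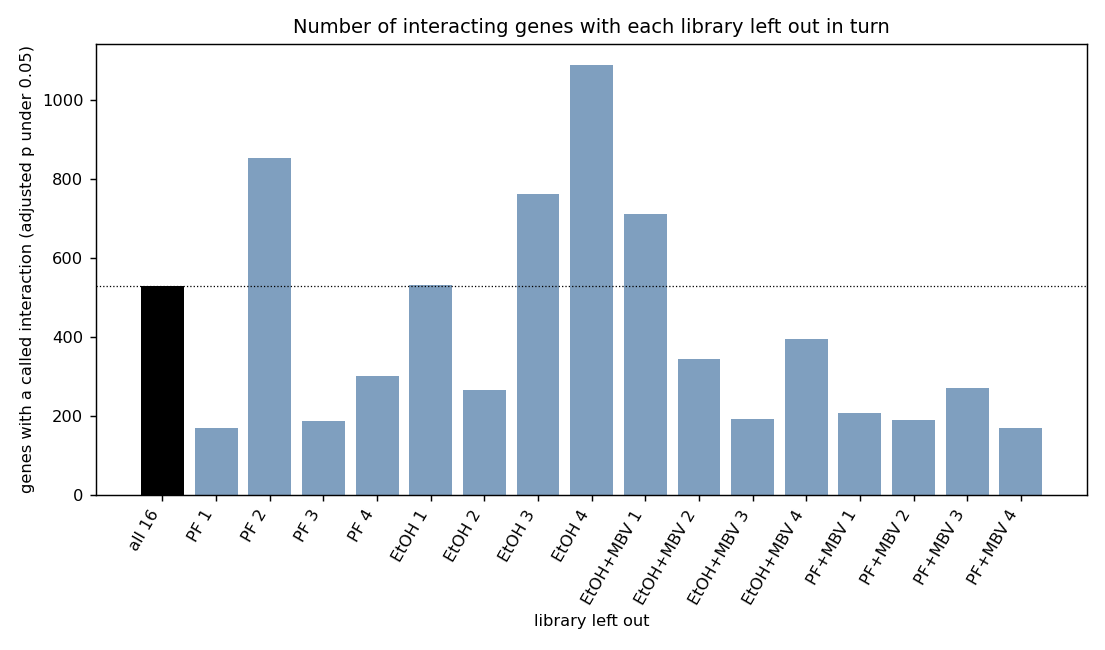
Bars give the number of genes with a called interaction (adjusted p under 0.05, y axis) with all 16 libraries (black) and with the named library left out (blue, x axis), and the dotted line marks 530. The bars run from 168 without PF 1 to 1088 without EtOH 4.

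The 530 genes were then sorted by the diet on which their change with MBV was called. Over all tested genes MBV gave 347 calls (2.69%) on the ethanol diet, where EtOH+MBV was set against EtOH, and 230 (1.78%) on the control diet, where PF+MBV was set against PF. Among the 530, 152 were called on the ethanol diet alone, 125 on the control diet alone, 4 on both diets in opposite directions and 0 on both in the same direction. The remaining 249 were called on neither diet, so only the difference between the diets passed the test. A call on the ethanol or control diet alone does not mean that the other diet had no change. The sign of the change was opposite on the ethanol and control diets in 517 of the 530, a share that the choice by interaction favours. In the ethanol diet class MBV lowered 82 genes and raised 70, and in the control diet class it lowered 75 and raised 50. These contrasts share libraries with the interaction, so the sorting is a description and not a further test.

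The classes depend on the limit. With unadjusted p-values under 0.05 on each diet, 145 genes fell in the ethanol diet class, 128 in the control diet class, 255 in the opposite class and 2 changed the same way on both diets. Sorted by size alone, with 1 diet's change at least 2 times the other's, 132 lay on the ethanol diet, 123 on the control diet and 275 on both in opposite directions. Of the 249 genes called on neither diet, 214 were in that opposite class by size. The ethanol diet class held 8 genes without EtOH+MBV 3 and 591 without EtOH 4. The control diet class held 33 without PF 1, 33 without PF 3 and 394 without PF 2.

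The libraries of EtOH and EtOH+MBV did not overlap at all in 221 of the 530 genes, where 7.60% of all tested genes had no overlap, and those of PF and PF+MBV did not overlap in 314, against 15.0% of all. In 81 genes neither pair of groups overlapped. These shares use the same contrasts that make up the interaction, so nothing is read from them.

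**Figure D2:**
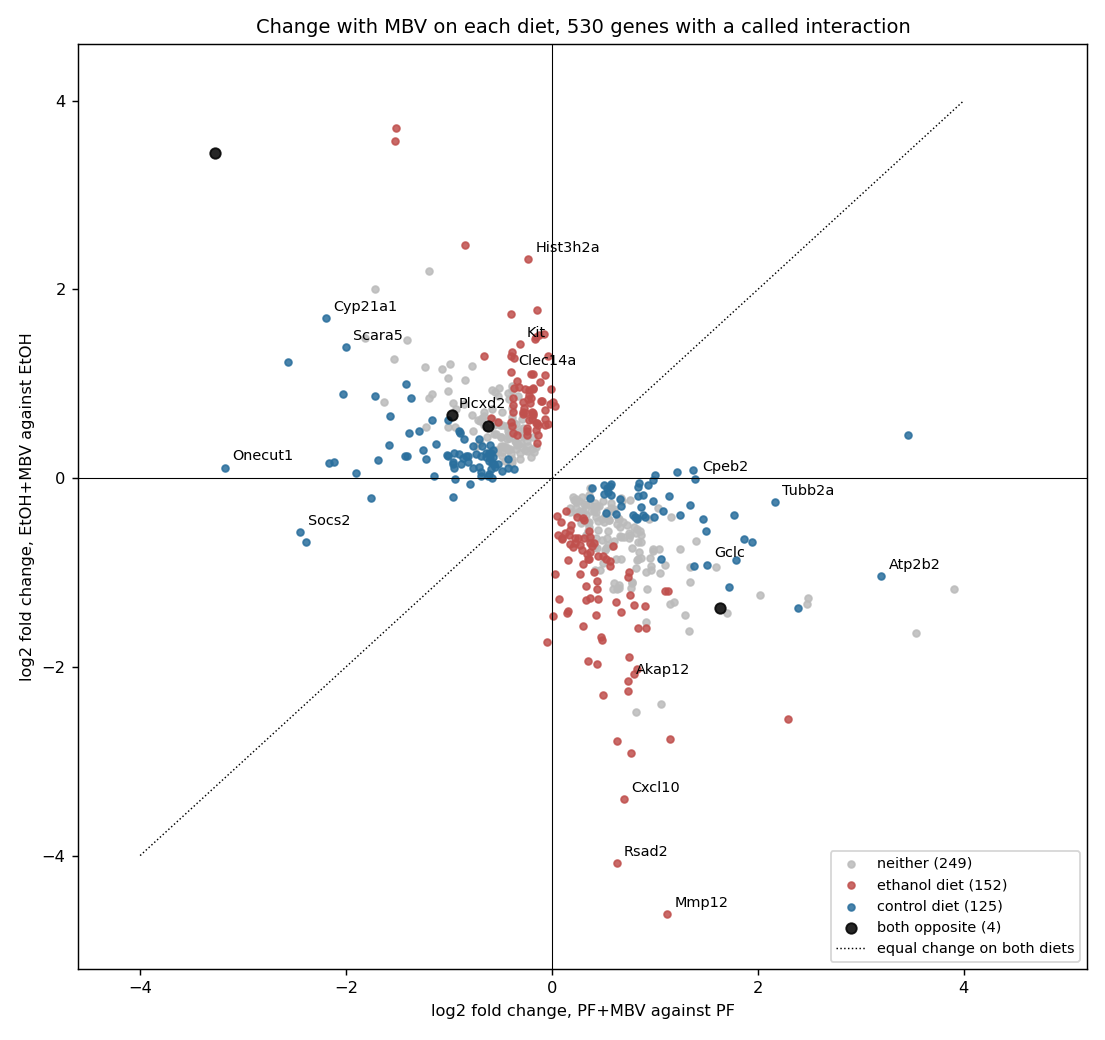
Each point is 1 of the 530 interacting genes, with its log2 fold change with MBV on the control diet (PF+MBV against PF, x axis) and on the ethanol diet (EtOH+MBV against EtOH, y axis), and colours give the class. Red genes (152) were called on the ethanol diet alone, blue genes (125) on the control diet alone, and the 4 black genes on both diets in opposite directions. By size, 33 red and 24 blue genes changed in opposite directions on the diets, with neither change at least 2 times the other.

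Genes called on the control diet alone were led by Id2 (chr12:25093799-25097140, GRCm38 as are all gene positions here). It encodes an inhibitor of basic helix-loop-helix transcription factors. Id2 stood at 103, 119, 93.8 and 119 CPM in PF and 42.0, 49.9, 47.3 and 46.1 CPM in PF+MBV, so every PF+MBV library lay below every PF library. On the ethanol diet it stood at 59.6, 62.8, 44.5 and 41.7 CPM in EtOH and 63.9, 57.9, 63.4 and 54.7 CPM in EtOH+MBV, and the 2 groups overlapped. The change with MBV was -1.23 ± 0.13 on the control diet (adjusted p = 0.000129) and 0.20 ± 0.13 on the ethanol diet (adjusted p = 0.394). The interaction was 1.43 ± 0.18 (adjusted p = 0.00458). The EtOH and EtOH+MBV libraries were also below all PF libraries.

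Onecut1 (chr9:74861921-74891781), which encodes the hepatocyte transcription factor HNF6, had the same direction with a larger size. Its levels were 50.7, 70.7, 67.8 and 25.4 CPM in PF and 6.70, 4.76, 6.77 and 5.44 CPM in PF+MBV, with no overlap. On the ethanol diet they were 12.7, 16.5, 13.8 and 14.3 CPM in EtOH and 26.8, 12.7, 9.87 and 12.2 CPM in EtOH+MBV. MBV lowered it by a log2 change of -3.18 ± 0.33 on the control diet (adjusted p = 0.000128), the change on the ethanol diet was 0.11 ± 0.30 (adjusted p = 0.872), and the interaction was 3.29 ± 0.44 (adjusted p = 0.00458). The EtOH+MBV 1 library was the high one of its group.

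Socs2 (chr10:95385362-95417180), a feedback inhibitor of growth hormone signalling, passed on the control diet alone, where it fell. It stood at 42.0, 34.9, 25.2 and 38.1 CPM in PF and 6.05, 5.41, 8.85 and 5.39 CPM in PF+MBV, and at 55.2, 38.1, 32.9 and 47.8 CPM in EtOH and 22.4, 25.6, 25.3 and 43.6 CPM in EtOH+MBV. The control diet change was -2.44 ± 0.24 (adjusted p = 0.000128), the ethanol diet change had the same sign and was smaller, -0.58 ± 0.22 (adjusted p = 0.151), and the interaction was 1.87 ± 0.33 (adjusted p = 0.0121). Socs2 is 1 of the 2 genes that changed the same way on both diets at unadjusted p-values under 0.05. Cish, another feedback inhibitor of the same pathway, also passed on the control diet alone (log2 change -2.17 ± 0.42, adjusted p = 0.0184), with an interaction of 2.32 ± 0.58 (adjusted p = 0.036) that was called in 8 of 16 fits with 1 library left out. These were 2 of 12 tested growth hormone and STAT5 genes, and the list's median interaction was -0.01. The number was 4 without EtOH 1, 3 without EtOH 3 or EtOH 4, and 1 without PF 3, EtOH 2, EtOH+MBV 3, EtOH+MBV 4 or any 1 of the PF+MBV libraries.

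Cpeb2 (chr5:43233170-43289724), which binds polyadenylation elements of cytoplasmic mRNA, rose with MBV on the control diet alone. It stood at 45.3, 56.4, 69.3 and 62.6 CPM in PF and 171, 140.4, 159 and 141 CPM in PF+MBV, with every PF+MBV library at least 2 times as high as every PF library. On the ethanol diet the levels were 57.2, 69.1, 82.6 and 82.0 CPM in EtOH and 63.8, 67.2, 79.0 and 79.7 CPM in EtOH+MBV, a change of -0.01 ± 0.14, and these libraries lay between those of PF and PF+MBV with some overlap with PF. The interaction was -1.39 ± 0.20 (adjusted p = 0.00468).

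Tubb2a (chr13:34074274-34078007), a beta tubulin of microtubules, rose with MBV on the control diet alone. It stood at 16.9, 35.9, 22.7 and 28.9 CPM in PF and 119, 119, 95.3 and 133 CPM in PF+MBV, and at 222, 149, 200.0 and 150.3 CPM in EtOH and 93.5, 133, 190.5 and 187 CPM in EtOH+MBV. MBV changed it by 2.16 ± 0.24 on the control diet (adjusted p = 0.000246) and by -0.26 ± 0.23 on the ethanol diet (adjusted p = 0.565), and the interaction was -2.42 ± 0.33 (adjusted p = 0.00468). The PF+MBV libraries lay above all PF and below all EtOH libraries. Id2, Onecut1, Socs2, Cpeb2 and Tubb2a kept their interaction call in each of the 16 fits that left out 1 library.

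Scara5, a ferritin receptor of the same class, stood at 54.9, 42.0, 53.6 and 32.1 CPM in PF and 3.59, 9.19, 14.1 and 18.6 CPM in PF+MBV and at 5.32, 22.6, 36.6 and 29.2 CPM in EtOH and 54.7, 75.8, 63.4 and 49.5 CPM in EtOH+MBV, with an interaction of 3.39 ± 0.64 (adjusted p = 0.0169). Its groups did not overlap on the control diet, where MBV lowered it, and all EtOH+MBV libraries lay above all EtOH libraries, where the change of 1.38 ± 0.45 did not pass (adjusted p = 0.0948). Cyp21a1, the steroid hydroxylase, whose close copy makes its reads uncertain, stood at 3.97, 5.39, 7.03 and 2.55 CPM in PF and 1.47, 0.703, 0.781 and 1.20 CPM in PF+MBV and at 0.194, 0.640, 0.537 and 0.258 CPM in EtOH and 2.36, 1.00, 1.21 and 0.628 CPM in EtOH+MBV, with an interaction of 3.88 ± 0.65 (adjusted p = 0.0101). Atp2b2, a plasma membrane calcium pump, stood at 0.306, 0.439, 0.449 and 0.559 CPM in PF and 2.76, 6.33, 3.33 and 3.90 CPM in PF+MBV and at 19.8, 3.90, 2.82 and 3.87 CPM in EtOH and 4.88, 2.34, 4.20 and 3.46 CPM in EtOH+MBV, with an interaction of -4.24 ± 0.80 (adjusted p = 0.0166), or -3.11 without EtOH 1. Further genes of the control diet class are given with their interaction in parentheses. They included the zinc exporter Slc30a1 (0.93 ± 0.22), the peroxisomal transporter Abcd2 (-1.43 ± 0.23) and the amino acid transporter Slc43a1 (1.54 ± 0.36). The nuclear receptor Pparg (0.96 ± 0.18), the growth factor receptor Egfr (1.79 ± 0.35) and the translation repressor Eif4ebp3 (2.92 ± 0.65) were others. On the control diet itself the log2 change with MBV was -0.94 for Slc30a1, 1.08 for Abcd2 and -1.75 for Slc43a1. It was -0.61 for Pparg and -2.03 for Eif4ebp3. The calls of Abcd2, Pparg and Egfr held in all 16 fits with 1 library left out, that of Eif4ebp3 in 11, Slc43a1 in 10 and Slc30a1 in 9.

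Genes called on the ethanol diet alone were led by Clec14a (chr12:58264720-58269290), a lectin of the endothelial cell surface. It stood at 4.07, 3.26, 4.56 and 5.61 CPM in EtOH and 10.3, 8.71, 10.5 and 8.54 CPM in EtOH+MBV, with every EtOH+MBV library above every EtOH library. On the control diet it stood at 18.7, 17.7, 21.7 and 21.7 CPM in PF and 14.5, 15.2, 14.1 and 16.7 CPM in PF+MBV, and there the PF+MBV libraries were all below PF. The ethanol diet change was 1.12 ± 0.15 (adjusted p = 0.00434), the control diet change -0.40 ± 0.14 (adjusted p = 0.136) and the interaction 1.53 ± 0.20 (adjusted p = 0.00458). The EtOH+MBV level lay between EtOH and PF.

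Kit (chr5:75574916-75656722), the receptor of stem cell factor, moved in the same direction. It stood at 1.65, 1.98, 3.02 and 2.06 CPM in EtOH and 6.42, 5.63, 5.99 and 5.15 CPM in EtOH+MBV, and at 9.96, 11.7, 11.0 and 10.0 CPM in PF and 8.88, 10.6, 8.85 and 5.96 CPM in PF+MBV. MBV raised it by 1.42 ± 0.20 on the ethanol diet (adjusted p = 0.00516) and changed it by -0.31 ± 0.18 on the control diet (adjusted p = 0.403), with an interaction of 1.74 ± 0.27 (adjusted p = 0.00607). In bulk liver RNA, fewer cells of a type and less RNA per cell cannot be told apart. Clec14a and Kit were the 2 called genes of 16 tested endothelial markers, whose median interaction was 0.25; Stab2, Lyve1 and Pecam1, markers of the same cells, had interactions of 0.26 ± 0.16, -0.06 ± 0.31 and -0.03 ± 0.14 and did not pass. Without EtOH 3, 4 of the 16 were called. The 16 markers summed to 621 to 724 CPM in PF, 644 to 714 CPM in PF+MBV, 457 to 596 CPM in EtOH and 519 to 667 CPM in EtOH+MBV, and the part of endothelial cell number in these 2 results was not tested.

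Akap12 (chr10:4266380-4359470), a scaffold that anchors protein kinase A at the cell cortex, moved the other way. It stood at 75.6, 77.1, 34.6 and 25.8 CPM in EtOH and 10.4, 12.7, 9.87 and 15.2 CPM in EtOH+MBV, and at 5.26, 6.39, 6.33 and 4.72 CPM in PF and 9.52, 7.84, 11.0 and 9.63 CPM in PF+MBV. All 4 EtOH libraries were above every library of the other 3 groups. MBV lowered Akap12 by -2.15 ± 0.29 on the ethanol diet (adjusted p = 0.00434), with a change of 0.74 ± 0.30 on the control diet (adjusted p = 0.213), and the interaction was -2.89 ± 0.41 (adjusted p = 0.00468).

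Hist3h2a (chr11:58954685-58956830), a histone H2A gene with near-identical copies elsewhere, so that its reads are uncertain, stood at 0.242, 0.407, 0.604 and 0.451 CPM in EtOH and 2.69, 2.01, 2.10 and 1.63 CPM in EtOH+MBV and at 3.18, 3.19, 3.64 and 3.11 CPM in PF and 3.47, 3.35, 2.24 and 2.12 CPM in PF+MBV. The EtOH libraries were the low group and did not overlap the other 3. Its interaction was 2.55 ± 0.38 (adjusted p = 0.00468).

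Other members of the ethanol diet class are given with their interaction in parentheses. MBV lowered the heat shock protein Hspa4l (-1.29 ± 0.21), the growth factor Tgfb3 (-1.89 ± 0.38) and the glucose transporter Slc2a1 (-1.57 ± 0.35). It also lowered the NF-kB inhibitor Nfkbia (-0.99 ± 0.18), the integrin chain Itgav (-0.55 ± 0.15) and the FGF21 co-receptor Klb (-0.88 ± 0.22). On the ethanol diet the log2 changes of these genes were -1.02, -1.46, -1.41, -0.62, -0.47 and -0.63, in that order. Those that MBV raised included the alcohol dehydrogenase Adh7 (1.15 ± 0.27) and the calpain Capn8 (3.31 ± 0.78). Their ethanol diet changes were 0.78 and 2.47. In EtOH Adh7 stood at 5.61, 8.20, 13.2 and 11.3 CPM, and in EtOH+MBV at 15.5, 14.9, 16.5 and 18.2 CPM. Adh7 stood at 26.2, 27.6, 22.9 and 22.6 CPM in PF and 21.1, 21.8, 17.3 and 16.1 CPM in PF+MBV on the control diet, so that every control diet library was above every EtOH library. The calls of Hspa4l, Tgfb3 and Nfkbia held in all 16 fits with 1 library left out, those of Slc2a1 in 13, Capn8 in 12, Adh7 in 8, Klb in 5 and Itgav in 3. Without PF 2 the interaction of Capn8 was 2.44.

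The largest negative values rested in part on EtOH 1. Mmp12 (chr9:7344381-7369499), the macrophage elastase, stood at 31.4, 4.71, 2.22 and 1.68 CPM in EtOH and 0.219, 0.603, 0.382 and 0.440 CPM in EtOH+MBV, and at 0.367, 0.376, 0.349 and 1.30 CPM in PF and 1.41, 1.19, 1.25 and 1.32 CPM in PF+MBV; the interaction was -5.74 ± 1.21 (adjusted p = 0.0209), -3.92 without EtOH 1 and -6.41 without PF 4. Rsad2, an antiviral enzyme induced by interferon, stood at 267, 26.6, 17.0 and 10.3 CPM in EtOH and 6.58, 4.69, 2.80 and 4.90 CPM in EtOH+MBV, and its interaction of -4.70 ± 1.07 (adjusted p = 0.0264) became -2.54 without that library. Cxcl10, a chemokine induced by interferon, stood at 21.1, 2.27, 2.82 and 2.51 CPM in EtOH and 0.603, 0.469, 0.509 and 1.13 CPM in EtOH+MBV, and its interaction of -4.10 ± 0.98 (adjusted p = 0.0315) became -2.58. In all 3 genes EtOH 1 was the highest library by far, the remaining EtOH libraries were also above every EtOH+MBV library, and the calls held without EtOH 1. On the control diet Rsad2 had a mean of 9.20 CPM in PF and 14.2 CPM in PF+MBV, and these libraries did not overlap. Cxcl10 had a mean of 1.48 CPM in PF and 2.38 CPM in PF+MBV, with overlap. The call of Mmp12 held in all 16 fits with 1 library left out, that of Rsad2 in 11 (not without PF 1, PF 3, EtOH+MBV 3, PF+MBV 2 or PF+MBV 4) and that of Cxcl10 in 7. Of 29 tested interferon response genes 2 were called, both negative (Rsad2 and Cmpk2), which is 6.90% beside 4.11% over all tested genes. The list's median was -1.37, and it was -0.69 without EtOH 1 and EtOH+MBV 1, where 6 were called. Leaving out single libraries gave 0 calls (without PF 1, PF 3, EtOH+MBV 3, PF+MBV 2 or PF+MBV 4) to 11 (without EtOH 4). Their sum was 1122 CPM in EtOH 1, and the 15 other libraries lay between 287 and 602 CPM.

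Gbp2, an interferon-induced GTPase of the same class, had an interaction of -1.69 ± 0.44 (adjusted p = 0.0402), called in 5 of 16 fits with 1 library left out. Tcf24, a helix-loop-helix factor, stood at 12.0, 1.40, 3.29 and 1.68 CPM in EtOH and 0.877, 0.603, 0.955 and 0.691 CPM in EtOH+MBV and at 0.0611, 0.0626, 0.249 and 0.311 CPM in PF and 0.882, 0.595, 1.25 and 0.802 CPM in PF+MBV, with an interaction of -4.85 ± 0.96 (adjusted p = 0.0187), or -3.71 without EtOH 1. The bicarbonate transporter Slc4a9 had -3.91 ± 0.99 (adjusted p = 0.0382), or -3.14 without EtOH 1 and -4.71 without PF 4, from levels of at most 4.65 CPM, and was called in 7 of 16 such fits.

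Of the 4 genes called on both diets in opposite directions, Plcxd2, Kti12 and the pseudogene Serpina4-ps1 are described here. Plcxd2 (chr16:45959263-46010218), a phospholipase C-like protein, was lowered on the control diet and raised on the ethanol diet. It stood at 191, 213, 192 and 149 CPM in PF and 94.0, 93.0, 108 and 85.3 CPM in PF+MBV, and at 43.5, 42.5, 34.5 and 64.2 CPM in EtOH and 84.4, 83.9, 66.2 and 58.4 CPM in EtOH+MBV, so that both MBV groups lay between PF and EtOH, with 1 EtOH library inside the range of EtOH+MBV. Its changes were -0.97 ± 0.17 and 0.67 ± 0.17 (adjusted p = 0.011 and 0.049), with an interaction of 1.64 ± 0.24 (adjusted p = 0.00468). Kti12 (chr4:108847785-108849413), a partner of the Elongator complex that modifies tRNA, had the smaller changes of -0.62 ± 0.14 and 0.55 ± 0.14 (adjusted p = 0.0362 and 0.0468). It stood at 19.7, 15.4, 13.1 and 22.3 CPM in PF and 11.5, 11.0, 12.7 and 10.5 CPM in PF+MBV, and at 13.2, 11.9, 14.3 and 13.2 CPM in EtOH and 17.5, 19.8, 20.6 and 19.3 CPM in EtOH+MBV, with an interaction of 1.18 ± 0.20 (adjusted p = 0.0101).

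Serpina4-ps1, named here after its values were seen, had the largest interaction of the 530, 6.72 ± 0.94 (adjusted p = 0.00468). It stood at 274, 366, 399.8 and 206 CPM in PF and 36.4, 39.3, 29.0 and 24.1 CPM in PF+MBV and at 0, 1.69, 3.62 and 13.6 CPM in EtOH and 83.7, 46.9, 36.4 and 33.6 CPM in EtOH+MBV. It was 8.18 without EtOH 4. It has close relatives in the serpin family, so its reads are uncertain. These 3 genes kept the interaction call in each of the 16 fits with 1 library left out, and the adjusted p of each diet's change was 0.011 to 0.049.

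**Figure D3:**
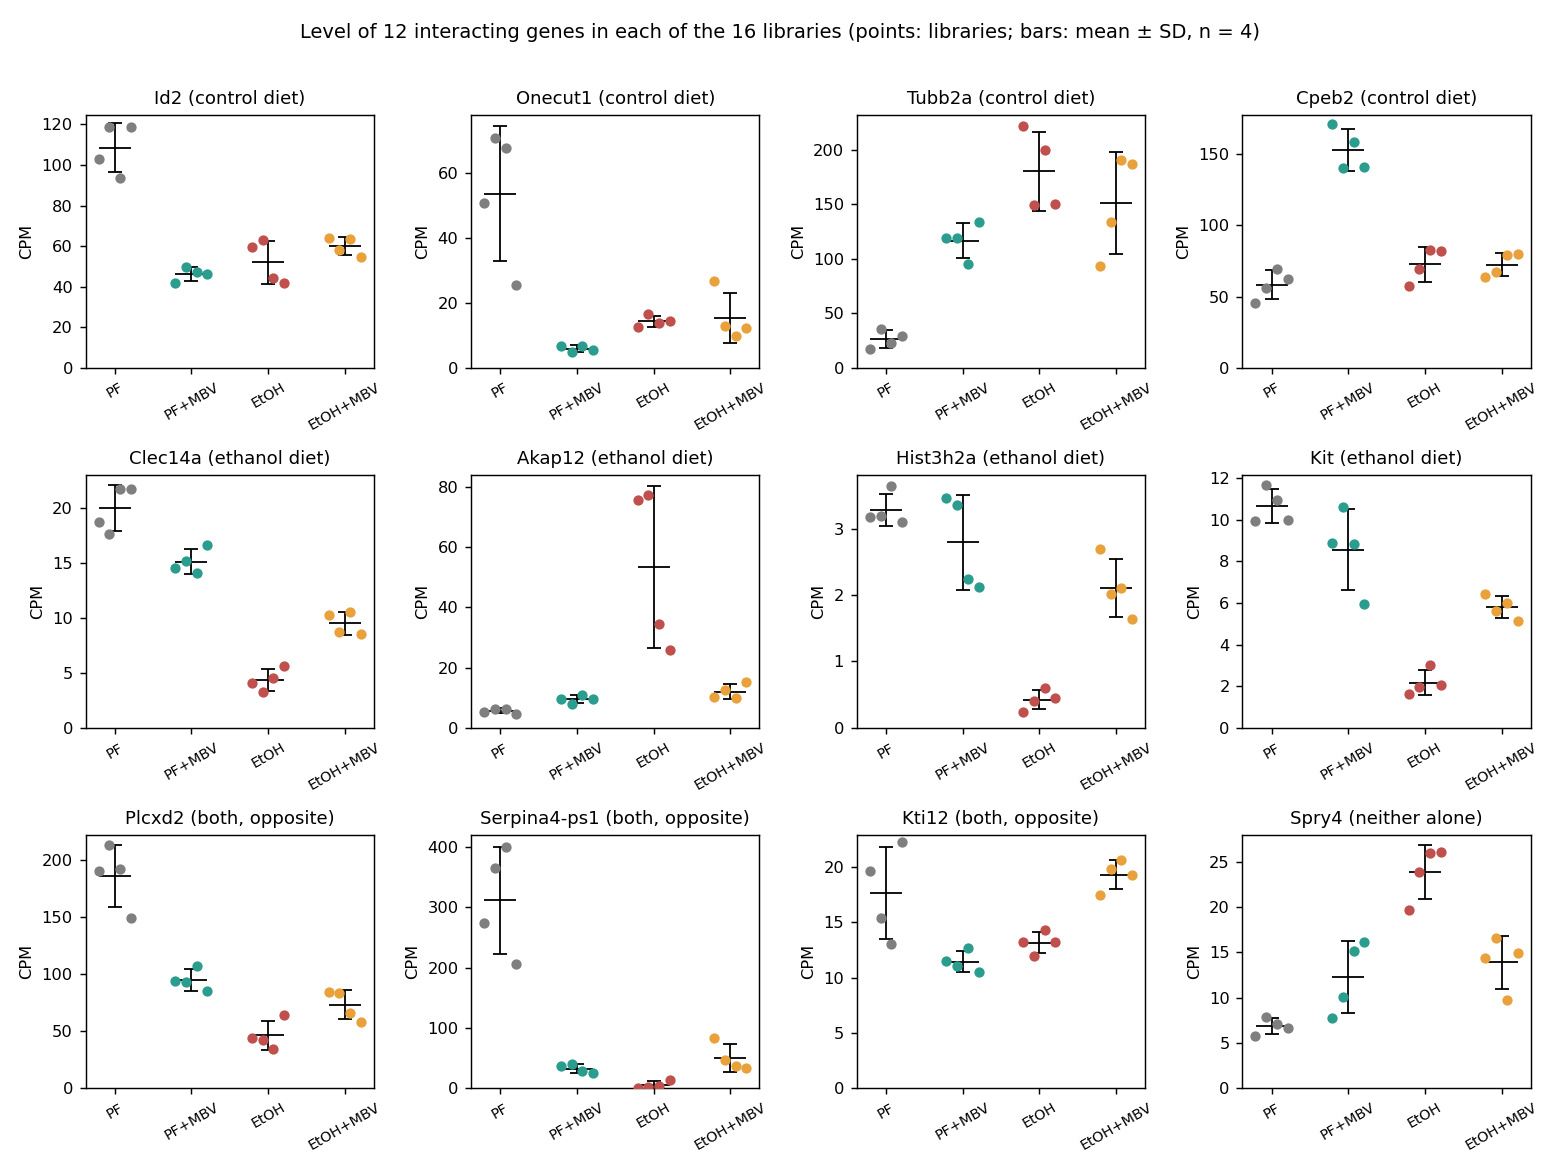
Points give the CPM (y axis, from 0) of 12 interacting genes in each library of the 4 groups (x axis), with the mean and SD of each group (n = 4) as black bars. The top row holds genes called on the control diet alone, and the middle row genes called on the ethanol diet alone. In the bottom row are Spry4 and genes of the opposite class, such as Plcxd2, whose PF+MBV libraries lie below all PF libraries.

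Among the 249 genes where neither diet passed, the smallest p-values were those of Spry4, Entpd5, Timm9 and Rreb1. Spry4, an inhibitor of receptor tyrosine kinase signalling, stood at 5.81, 7.89, 7.03 and 6.65 CPM in PF and 7.76, 10.1, 15.2 and 16.1 CPM in PF+MBV, and at 19.7, 23.9, 26.0 and 26.1 CPM in EtOH and 14.4, 16.5, 9.74 and 15.0 CPM in EtOH+MBV. The changes of 0.85 ± 0.21 and -0.78 ± 0.20 each just missed the limit (adjusted p = 0.0524 and 0.0505), and the interaction was -1.63 ± 0.30 (adjusted p = 0.0137). Both MBV groups lay between PF and EtOH, with PF+MBV 1 within the PF range.

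Entpd5, a nucleoside diphosphatase of the endoplasmic reticulum, stood at 270.3, 304, 269 and 261 CPM in PF and 426, 333, 333 and 413 CPM in PF+MBV, and at 490.4, 602, 483 and 478 CPM in EtOH and 403, 408, 327 and 363 CPM in EtOH+MBV, with an interaction of -0.90 ± 0.17 (adjusted p = 0.0169). Timm9, a chaperone of mitochondrial protein import, had 1.15 ± 0.22 (adjusted p = 0.0169) and stood at 29.5, 22.6, 29.8 and 31.1 CPM in PF and 19.8, 18.9, 19.3 and 19.1 CPM in PF+MBV, and at 10.1, 8.78, 16.2 and 14.3 CPM in EtOH and 19.0, 19.2, 18.2 and 17.8 CPM in EtOH+MBV. The 2 MBV groups met at about the same level from opposite sides in both genes. Rreb1, a Ras-responsive transcription factor, stood at 96.7, 70.7, 101 and 68.2 CPM in PF and 59.3, 45.4, 53.6 and 51.0 CPM in PF+MBV, and at 33.1, 53.9, 49.6 and 70.3 CPM in EtOH and 80.6, 74.9, 78.8 and 87.3 CPM in EtOH+MBV, with the PF+MBV libraries below all PF and the EtOH+MBV libraries above all EtOH, and an interaction of 1.32 ± 0.26 (adjusted p = 0.0175).

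Larger values in this class came with wider spread. C4a, a complement gene with a near-identical neighbour that makes its reads uncertain, had 3.30 ± 0.75, or 2.58 without EtOH+MBV 1, and Selenbp2, which has a near-identical copy in Selenbp1, had 3.72 ± 0.96, or 2.27 without EtOH+MBV 1. In both genes EtOH+MBV 1 was the highest of its group, at 148 CPM for C4a and 388 CPM for Selenbp2. The Selenbp2 call was lost without that library and held in 6 of 16 such fits, the C4a call in 11. Ces4a, a carboxylesterase, had 3.38 ± 0.71 from at most 4.70 CPM, and kept its call in all 16 fits with 1 library left out. Ly6d, a surface antigen, had -5.08 ± 1.30, or -2.97 without PF+MBV 4 and -4.15 without EtOH 1, and its call was lost without either. Abcc12 had -5.18 ± 1.10 and was at 0 in 3 PF libraries, so that value depends on the prior count. It was -7.50 without PF 4.

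The interaction in pathways was read from 58 gene lists with 946 tested genes. Of these genes 116 were called, which is 12.3% beside 4.11% over all tested genes, but the lists were drawn up with earlier results of these data known, so the excess is no finding. In 15 of the lists 0 members were called, and in 8 lists 5 or more were. The counts of single lists, above and below, stand beside the same 4.11%, and a share near it is no result about a list.

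The NRF2 targets held the most called genes, 11 of 21 tested, and all 11 were negative. Their median interaction was -1.44. The list covers enzymes of glutathione synthesis (Gclc), quinone and peroxide defence (Nqo1, Txnrd1, Srxn1), glutathione transfer (Gsta1, Gsta2, Gstm1), the NADPH and glucuronate supply (Pgd, Ugdh) and export (Abcc3, Abcc4). Gclc (chr9:77754535-77794485), the catalytic subunit of the rate-limiting enzyme of glutathione synthesis, stood at 104, 212, 124 and 107 CPM in PF and 503, 348, 315 and 392 CPM in PF+MBV, and at 456, 380.2, 281 and 266 CPM in EtOH and 132, 249, 187 and 164 CPM in EtOH+MBV. The PF+MBV libraries lay above every PF library (change 1.51 ± 0.25, adjusted p = 0.00906) and the EtOH+MBV libraries below every EtOH library, where the change of -0.92 ± 0.25 did not pass (adjusted p = 0.0567), with an interaction of -2.43 ± 0.35 (adjusted p = 0.00468).

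Nqo1, a quinone reductase, had the same directions at lower levels, 2.44, 4.01, 3.49 and 3.48 CPM in PF and 11.4, 4.16, 7.91 and 11.6 CPM in PF+MBV, and 55.4, 36.5, 23.8 and 31.6 CPM in EtOH and 14.6, 21.3, 19.4 and 22.1 CPM in EtOH+MBV. Its interaction was -2.31 ± 0.41 (adjusted p = 0.0134), and the change passed on the control diet (1.38 ± 0.31, adjusted p = 0.0358). Srxn1, which repairs overoxidised peroxiredoxins, passed on the ethanol diet alone. It stood at 951, 363, 204 and 231 CPM in EtOH and 79.2, 124, 103 and 108 CPM in EtOH+MBV. On the control diet it stood at 27.5, 28.3, 28.2 and 35.8 CPM in PF and 52.4, 44.7, 48.2 and 62.2 CPM in PF+MBV, and there all PF+MBV libraries lay above all PF libraries. The interaction of Srxn1 was -2.87 ± 0.50 (adjusted p = 0.0121). EtOH 1 was the high Srxn1 library, and without it the value was -2.14.

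Ugdh, Txnrd1 and Abcc4 passed on the ethanol diet alone, with interactions of -1.44 ± 0.26, -0.75 ± 0.18 and -1.94 ± 0.51. The other 5 passed on neither diet: Gsta1 (-3.82 ± 1.02), Gsta2 (-1.52 ± 0.39), Gstm1 (-1.31 ± 0.33), Pgd (-1.47 ± 0.34) and Abcc3 (-0.89 ± 0.24). The Gst genes have near-identical copies, which makes their reads uncertain. Hmox1, the haem oxygenase of the same list, was at 1.78 ± 0.58 and did not pass (adjusted p = 0.0851). The called number was 4 without PF 1, EtOH+MBV 3, PF+MBV 1 or PF+MBV 4, and 12 without EtOH 4. Gclc, Nqo1, Srxn1 and Ugdh kept their call in all 16 fits with 1 library left out, and the other 7 in 2 to 10 of them.

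Of 26 genes of cholesterol synthesis and sterol control, 7 were called, all negative, and the list's median was -1.01. They included Hmgcs1, an enzyme of the early steps of cholesterol synthesis, Sqle (-1.57 ± 0.43), the squalene epoxidase, Msmo1 (-1.81 ± 0.46) of its later steps, and Insig1, which holds back SREBP processing. Insig1 stood at 141, 278, 147 and 135 CPM in PF and 374, 433, 377 and 316 CPM in PF+MBV, and at 208, 239.7, 128 and 79.4 CPM in EtOH and 80.9, 89.2, 58.1 and 58.9 CPM in EtOH+MBV, with an interaction of -2.29 ± 0.42 (adjusted p = 0.0137).

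Insig1 passed on the ethanol diet, where MBV lowered it, and on the control diet its PF+MBV libraries lay above all PF libraries without passing (adjusted p = 0.0687). Hmgcs1 passed on the control diet alone. It stood at 123, 381, 88.9 and 95.9 CPM in PF and 572, 724, 568 and 642 CPM in PF+MBV, and at 208, 327, 107 and 109.6 CPM in EtOH and 143, 101, 129.9 and 106 CPM in EtOH+MBV, with an interaction of -2.51 ± 0.59 (adjusted p = 0.0295). PF 2 was the highest PF library in the 4 named sterol genes, and Hmgcs1 was -3.25 without it. Without PF 2, 16 of the sterol genes were called, and 3 were called without PF 1, PF 3, PF 4, EtOH 2, EtOH+MBV 2, EtOH+MBV 3, PF+MBV 1, PF+MBV 2 or PF+MBV 4. Cyp51 (-1.08 ± 0.36) and Srebf2 (-0.61 ± 0.20), which encodes SREBP2, did not pass.

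The called NRF2 genes and the called sterol genes all had negative interactions. Promoters of 3 of these genes are shown, picked from those that held a motif, and a link of the motif to the interaction was not tested. The 250 bases before the RefSeq start (GRCm38.p6), annotated exons included, were searched on both strands for the sterol regulatory element TCACNCCAC and for the antioxidant response element core TGACNNNGC, and the letters TCA can belong to both. Of the 12901 tested genes, 9861 matched a RefSeq promoter by symbol, 1.36% with the sterol element and 14.0% with the antioxidant core. Of the called sterol genes 3 of 7 matched, and 1, Hmgcs1, held the sterol element. Among all 26 tested sterol genes 18 matched, and 1 of them held it (5.56%). Of the called NRF2 genes 9 of 11 matched, and 3, Txnrd1, Ugdh and Abcc4, held the antioxidant core. Among all 21 tested NRF2 targets 18 matched, and 5 of them held it (27.8%), so the core is not particular to called members. A match of letters is a description and not a binding site. The stretches below run 5′ to 3′ on the strand of the gene, stop at any annotated exon, and carry the motif in capitals.
Hmgcs1, chr13:119690101-119690350, plus strand, sterol element: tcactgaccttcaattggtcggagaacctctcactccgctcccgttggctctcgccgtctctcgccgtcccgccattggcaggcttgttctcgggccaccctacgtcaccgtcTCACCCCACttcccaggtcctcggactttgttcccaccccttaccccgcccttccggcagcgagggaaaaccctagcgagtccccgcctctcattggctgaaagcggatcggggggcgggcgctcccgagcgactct
Ugdh, chr5:65435950-65436092, minus strand, antioxidant core: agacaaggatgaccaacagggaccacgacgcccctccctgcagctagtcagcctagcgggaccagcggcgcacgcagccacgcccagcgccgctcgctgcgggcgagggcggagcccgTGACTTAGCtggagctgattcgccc
Txnrd1, chr10:82859009-82859178, plus strand, antioxidant core read on the opposite strand: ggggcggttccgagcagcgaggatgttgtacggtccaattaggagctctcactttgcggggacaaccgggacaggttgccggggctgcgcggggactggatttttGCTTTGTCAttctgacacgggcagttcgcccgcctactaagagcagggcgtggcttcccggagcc
The Hmgcs1 element lay 137 bases before the start, the printed Ugdh element 132 and the Txnrd1 element 92. Ugdh held a second match of the core, on the opposite strand and 94 bases before the start, among the bases that are not printed.

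Fatty acid synthesis and desaturation had 3 of 20 genes called, all negative and all on the control diet alone, with a list median of -0.42. Pnpla3, a lipase of lipid droplets under SREBP1 control, stood at 0.672, 3.01, 0.848 and 2.05 CPM in PF and 5.94, 10.4, 11.6 and 6.30 CPM in PF+MBV, and at 2.42, 12.7, 4.97 and 2.58 CPM in EtOH and 2.47, 1.67, 2.99 and 1.57 CPM in EtOH+MBV, with an interaction of -3.76 ± 0.74 (adjusted p = 0.0187), or -2.99 without EtOH 2, the highest EtOH library. Gpam, the first enzyme of triglyceride synthesis, stood at 143, 227, 171 and 139.7 CPM in PF and 359, 329.9, 277 and 293 CPM in PF+MBV, and at 168, 159.5, 130.2 and 143 CPM in EtOH and 146, 128, 119 and 139 CPM in EtOH+MBV, with an interaction of -1.06 ± 0.21 (adjusted p = 0.0187). The third was the acyl-CoA synthetase Acsl3, with a control diet change of 0.93 ± 0.16 and an ethanol diet change of -0.07 ± 0.16. Fasn (-0.94 ± 0.38, adjusted p = 0.157) and Srebf1 (-0.42 ± 0.52, adjusted p = 0.677) did not pass. Without EtOH+MBV 1, 6 were called, and 2 without PF 1, PF 3 or PF+MBV 2.

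Tubulins and keratins had 7 of 15 genes called, all negative, with a median of -1.15. The microtubule genes Tubb2a, Tubb4b (interaction -1.25 ± 0.22) and Tuba1a (interaction -1.28 ± 0.30) rose with MBV on the control diet alone. Krt8 and Krt18, the keratin pair of the hepatocyte, fell with MBV on the ethanol diet alone. Krt8 stood at 1041, 924, 566 and 428 CPM in EtOH and 232, 321, 312 and 346 CPM in EtOH+MBV, and at 138, 189, 136 and 144 CPM in PF and 190.4, 179, 172 and 224 CPM in PF+MBV, and its interaction was -1.62 ± 0.32 (adjusted p = 0.0187).

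Krt18 stood at 524, 499.7, 306 and 261 CPM in EtOH and 137, 179, 215 and 217 CPM in EtOH+MBV, and at 71.6, 105, 76.9 and 69.3 CPM in PF and 114, 107, 97.2 and 120.1 CPM in PF+MBV, with -1.53 ± 0.30 (adjusted p = 0.0187). Every EtOH library was above every EtOH+MBV library in both keratins. Tuba1b (-1.76 ± 0.39) and Tubb5 (-1.39 ± 0.36) passed on neither diet. Tubulin genes share long stretches of sequence and these keratins have many pseudogenes, so their reads are uncertain. The called number was 4 without PF 1, PF 3, EtOH+MBV 3 or PF+MBV 2, and 9 without PF 2.

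The actin cytoskeleton and scaffold list had 6 of 26 genes called, all negative, with a median of -0.66. Besides Akap12 they were the calcium-binding S100a10 (-1.40 ± 0.21) on the control diet, tropomyosin Tpm4 (-1.15 ± 0.25) and S100a11 (-2.40 ± 0.64) on the ethanol diet, and vinculin Vcl (-0.61 ± 0.14) and annexin Anxa5 (-1.28 ± 0.29) on neither. Without EtOH 1 the value of S100a11 was -1.43. S100a10 stood at 44.5, 74.0, 42.8 and 57.0 CPM in PF and 108, 107, 102 and 118 CPM in PF+MBV, and at 137, 121, 122 and 109 CPM in EtOH and 73.9, 95.8, 102 and 96.7 CPM in EtOH+MBV. The number was 2 without PF 1 or PF+MBV 2 and 12 without EtOH 4.

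In the extracellular matrix list 8 of 35 genes were called, all negative, with a median of -0.85. Thbs1, the matrix protein thrombospondin 1, fell with MBV on the ethanol diet from 37.2, 18.5, 11.3 and 7.22 CPM in EtOH and 2.08, 5.49, 2.99 and 5.15 CPM in EtOH+MBV, stood at 1.04, 0.626, 1.70 and 1.86 CPM in PF and 2.53, 2.43, 1.87 and 2.01 CPM in PF+MBV, and had an interaction of -2.99 ± 0.66 (adjusted p = 0.0234). Col5a1 (-1.40 ± 0.35) and Mmp12 passed on the ethanol diet too, and the collagens Col3a1 (-2.44 ± 0.61) and Col4a1 (-0.83 ± 0.21), the laminin chain Lamb1, Sparc (-0.88 ± 0.20) and Spon2 (-3.25 ± 0.79) on neither. EtOH 1 was the highest EtOH library in all 8 genes. Without it Thbs1 was -2.39, Col3a1 -1.46 and Spon2 -2.20. Without EtOH 1 and EtOH+MBV 1 together, 8 negative genes and 1 positive were called, with a median of -0.45. The negative count was 1 without PF 1, EtOH+MBV 3 or PF+MBV 2 and 11 without EtOH 4.

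Stellate and fibroblast markers, which share cells with that list, had 1 of 14 genes called, 7.14% beside 4.11% over all tested genes. The called gene was the receptor Ngfr (-2.74 ± 0.62, adjusted p = 0.025), and the 14 markers had a median of -0.44. The call of Ngfr was lost without PF 1, PF 3, EtOH 2, EtOH+MBV 3, PF+MBV 1, PF+MBV 2 or PF+MBV 4, and 2 of the 14 were called without PF 4, EtOH 4 or EtOH+MBV 4. The markers summed to 280.5 to 299 CPM in PF, 293 to 334 CPM in PF+MBV, 280.0 to 421 CPM in EtOH and 247 to 336 CPM in EtOH+MBV, and their part in the matrix result was not tested.

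Immediate early genes, which answer to growth signals and stress within minutes, had 6 of 19 called, all negative, with a median of -1.13. Fos, a subunit of AP-1, fell with MBV on the ethanol diet, from 28.5, 14.2, 17.0 and 15.0 CPM in EtOH and 3.73, 9.24, 5.35 and 6.66 CPM in EtOH+MBV, and stood at 1.77, 0.501, 2.99 and 1.80 CPM in PF and 5.35, 1.95, 3.59 and 1.95 CPM in PF+MBV, with an interaction of -2.42 ± 0.59 (adjusted p = 0.0326). The others were Zfp36 (-1.32 ± 0.29) on the ethanol diet, and Egr1 (-1.89 ± 0.51), Dusp1 (-1.52 ± 0.38), Klf4 (-1.87 ± 0.51) and Nr4a2 (-2.95 ± 0.61) on neither. Nr4a2 stood at only 0.110 to 2.65 CPM. Klf4 was -1.26 without EtOH 1. A single member was called without PF 1, EtOH+MBV 3 or PF+MBV 1.

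Ribosome assembly and RNA polymerase I genes went the other way, with 7 of 25 called, all positive, 6 of them on the control diet alone, and a median of 0.52. Rrp12, a factor for export of ribosomal subunits, stood at 15.8, 8.02, 16.0 and 17.6 CPM in PF and 6.58, 6.33, 6.98 and 6.36 CPM in PF+MBV, and at 17.7, 16.9, 16.2 and 19.6 CPM in EtOH and 14.3, 24.1, 27.9 and 24.4 CPM in EtOH+MBV, with an interaction of 1.50 ± 0.30 (adjusted p = 0.0188). Nop56, of the particles that methylate ribosomal RNA, stood at 32.3, 22.2, 33.0 and 28.2 CPM in PF and 14.4, 15.5, 16.7 and 16.0 CPM in PF+MBV, and at 31.3, 21.4, 25.8 and 31.3 CPM in EtOH and 23.8, 35.2, 34.5 and 28.6 CPM in EtOH+MBV, with 1.04 ± 0.22 (adjusted p = 0.02). On the control diet MBV brought every library of both genes below every PF library.

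Nolc1, Wdr43, Nob1 and the polymerase subunit Polr1b were also lowered on the control diet. Their interactions were 1.11 ± 0.23, 0.92 ± 0.24, 0.87 ± 0.18 and 0.69 ± 0.18. Nop2, a ribosomal RNA methyltransferase with an interaction of 1.33 ± 0.28, passed on neither diet. Between 5 and 10 were called when 1 library was left out, 10 of them without PF 2, which was the lowest PF library in all 7 genes. Of the 22 tested cytosolic ribosomal proteins, the products that these factors assemble, 0 were called and the median was -0.01.

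Hepatocyte transcription factors and nuclear receptors had 6 of 23 called, all positive, with a median of 0.44. Onecut1 passed on the control diet, and Onecut2 (0.84 ± 0.20), Foxa2 (1.19 ± 0.30), Cebpa (0.93 ± 0.24) and Prox1 (1.76 ± 0.37) on neither. Prox1 stood at 109.6, 52.1, 83.3 and 81.5 CPM in PF and 44.7, 34.3, 49.5 and 38.8 CPM in PF+MBV, and at 43.3, 71.3, 73.4 and 129.6 CPM in EtOH and 118, 139, 135 and 158 CPM in EtOH+MBV (adjusted p = 0.0202). Cebpa stood at 416, 461, 413 and 437 CPM in PF and 334, 322, 296 and 330.1 CPM in PF+MBV, and at 93.9, 165, 177 and 166 CPM in EtOH and 280.0, 199, 171 and 200.4 CPM in EtOH+MBV (adjusted p = 0.0436). By mean, PF+MBV was the lowest and EtOH+MBV the highest of the 4 groups for Prox1. The count was 2 without PF 3, PF+MBV 2, PF+MBV 3 or PF+MBV 4, and 8 without EtOH 4. Of the 10 tested hepatocyte markers, all with interactions above 0 and a median of 0.33, 0 were called.

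Circadian clock and output genes had 4 of 20 called, all 4 on the control diet alone. The period genes Per2 and Per3, repressors of the clock, fell with MBV there. Per2 stood at 62.4, 34.3, 69.2 and 53.3 CPM in PF and 22.3, 22.4, 22.6 and 22.3 CPM in PF+MBV, and at 24.1, 43.3, 64.1 and 59.6 CPM in EtOH and 54.2, 66.4, 74.5 and 75.3 CPM in EtOH+MBV, with an interaction of 1.79 ± 0.35 (adjusted p = 0.0175). Per3 stood at 49.1, 42.8, 50.1 and 31.0 CPM in PF and 11.3, 14.2, 16.9 and 15.8 CPM in PF+MBV, and at 10.6, 22.3, 10.6 and 17.5 CPM in EtOH and 39.9, 10.1, 22.5 and 23.6 CPM in EtOH+MBV, with an interaction of 2.23 ± 0.45 (adjusted p = 0.0188).

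The PF+MBV libraries of Per2 lay within 22.3 to 22.6 CPM, the tightest of its groups. Nampt, which feeds the NAD pool, also fell with MBV on the control diet and had an interaction of 0.99 ± 0.23. Npas2, a clock activator, rose there from near 0, at 0.0611, 0.251, 0 and 0.311 CPM in PF and 2.00, 2.05, 1.04 and 1.72 CPM in PF+MBV. The hour of collection is not given in the sources used here, and its part in the clock result was not tested. With 1 library left out the called number was 2 (without PF 1, PF 3, PF 4, EtOH 2, EtOH+MBV 3, PF+MBV 1, PF+MBV 2 or PF+MBV 4) to 7 (without PF 2 or EtOH 4).

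**Figure D4:**
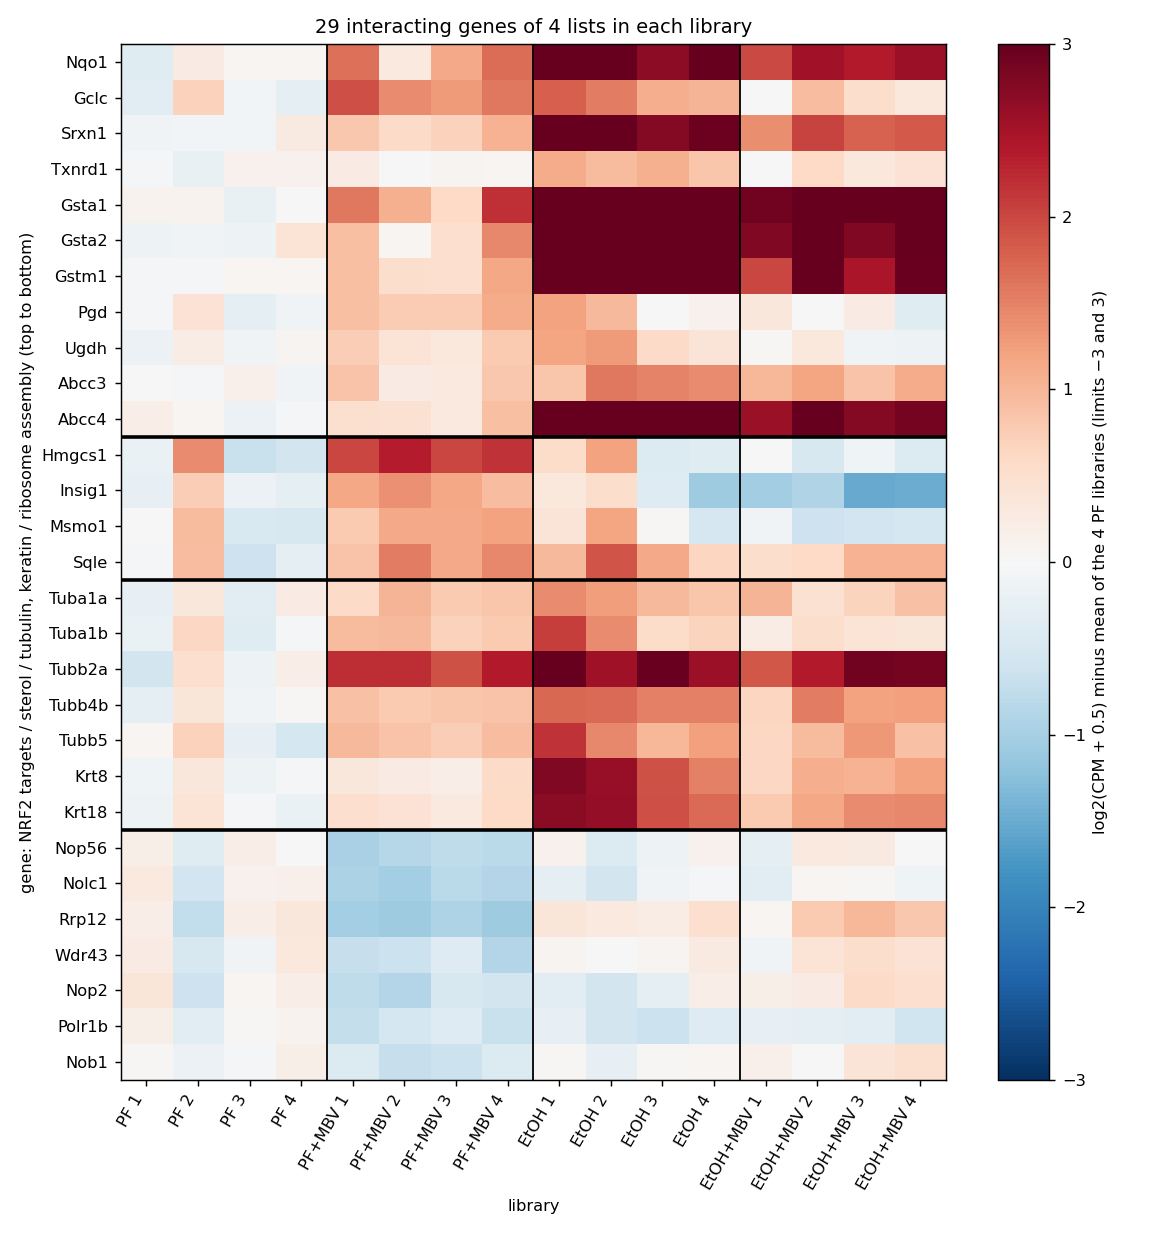
Colours give log2(CPM + 0.5) minus the mean of the 4 PF libraries for 29 called genes of 4 lists (rows, split by black lines) in each of the 16 libraries (columns), with limits at -3 and 3. The 4 sterol genes lie above 0 in all PF+MBV libraries and in PF 2 and EtOH 2, and the 7 ribosome assembly genes lie below 0 in all PF+MBV libraries.

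Male-biased liver genes had the largest positive median of the lists, 1.43 over 17 tested genes, but 3 called: Serpina1e (2.80 ± 0.67), Selenbp2 and the complement factor C6 (1.31 ± 0.35). Without EtOH 1 and EtOH+MBV 1 the median was 0.54 and 2 were called, and 0 were called without PF 1, PF 3, PF+MBV 1, PF+MBV 3 or PF+MBV 4. Of the 26 tested cell cycle and replication genes 1 was called, 3.85% beside 4.11% over all tested genes. It was the replication helicase subunit Mcm2 (-2.50 ± 0.63, adjusted p = 0.0374). The 26 genes had the most negative median of the lists, -2.09. Their sum was 485 CPM in EtOH 1 and between 96.3 and 174 CPM elsewhere. Without both libraries that stand apart the median was -0.50. The called number was 0 to 7 when 1 library was left out, 7 of them without EtOH 4.

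A single gene was called in 17 lists, where the share called was 3.57 to 10.0% beside 4.11% over all tested genes, so these counts are not results about the lists. Cd163 (1.13 ± 0.27) was the 1 called of 13 Kupffer cell markers, of which 10 had negative interactions, with a median of -0.29. Cd9 (-1.36 ± 0.28) was the 1 called of 10 monocyte and recruited macrophage markers, of which 8 were negative, with a median of -0.54. The stress hormone Gdf15 (-2.28 ± 0.57) was 1 of 17 integrated stress response genes, the AHR target Tiparp (-1.25 ± 0.33) 1 of 15 genes of xenobiotic sensors, Psmd11 (-0.58 ± 0.13) 1 of 20 proteasome genes, Birc3 (-0.92 ± 0.23) 1 of 19 apoptosis genes and Tbx3 (2.06 ± 0.50) 1 of 16 pericentral Wnt targets. Acute phase genes had 2 of 25 called, with Saa4 at 2.20 ± 0.58, and a median of 0.85. The acute phase count was 7 without EtOH 3, 3 without EtOH+MBV 1, 1 without EtOH 4, 2 without PF 2 or EtOH 1, and 0 without any 1 of the other 11 libraries. Lipoprotein genes had 2 of 19 called, with Apoa4 at -2.06 ± 0.49, lysosome genes 2 of 24, with the sialidase Neu1 at -0.73 ± 0.18, and urea cycle genes 2 of 18, with Nags at 0.42 ± 0.11. Snhg1 (1.27 ± 0.27), a noncoding RNA that hosts small nucleolar RNAs, was 1 of 3 called among 18 nuclear RNAs and splicing factors. The calls of Cd9 and Snhg1 held in all 16 fits with 1 library left out, and those of the other genes of this paragraph in 2 to 12. With 1 library left out the called number was 0 to 2 for Kupffer, xenobiotic sensor, Wnt target and lipoprotein genes, 0 to 1 for stress response and proteasome genes, 0 to 3 for apoptosis genes (3 without PF 2, EtOH 3 or EtOH 4), 1 to 3 for monocyte markers (3 without EtOH 4), 0 to 4 for lysosome (4 without EtOH 4) and urea cycle genes (4 without EtOH 3), and 1 to 5 for nuclear RNAs (5 without EtOH 4).

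Lists with 0 called genes were the chaperones and XBP1 targets of the endoplasmic reticulum (19 tested), fatty acid oxidation and PPARA targets (26), oxidative phosphorylation (23), cytosolic ribosomal proteins (22), methionine cycle and transsulfuration (16), both classes of MHC presentation (12 and 8) and IL-33 and type 2 signals (9). Markers of neutrophils (6 tested), cholangiocytes (8), lymphocytes (3), adipocytes (3), pancreatic acini (1) and blood cells (3) had 0 as well. Some lists without a call leaned to one side. All 8 MHC class II genes (median -0.77) and 11 of 12 class I genes were negative. Positive were 21 of 23 oxidative phosphorylation and 20 of 26 fatty acid oxidation genes, but 11 of 22 ribosomal proteins and 9 of 19 chaperones and XBP1 targets. Over all 12901 tested genes 6514 were positive, and these leanings were not tested. Of the 169 genes of all 15 lists without a call by edgeR, the hepatocyte markers included and Fabp1 counted in both of its lists, 18 had an unadjusted p under 0.05, and DESeq2 called 2. On simulated data of this design 33% of 2-fold and 81% of 4-fold interactions were recovered, so a smaller interaction in these lists was often not detectable.

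**Figure D5:**
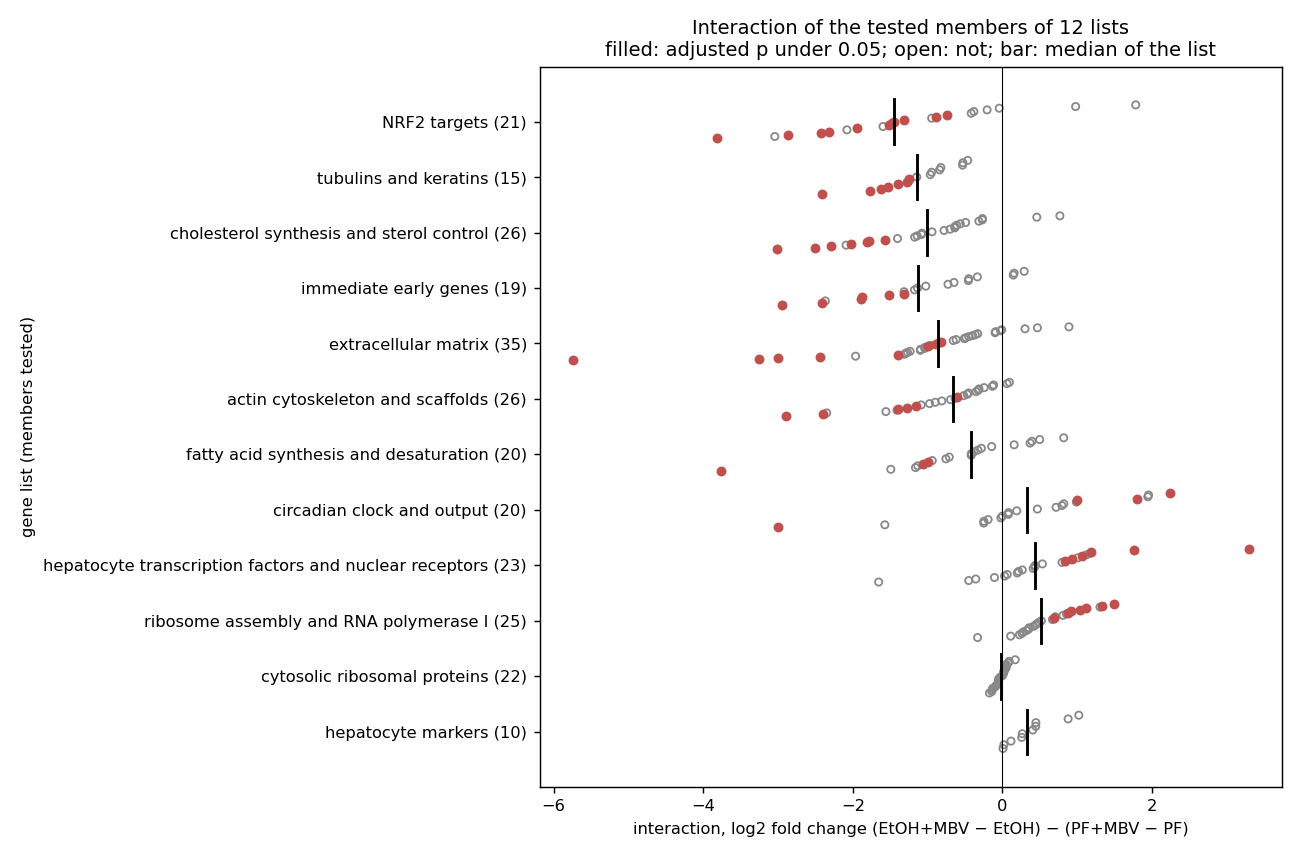
Each point is a tested gene of 1 of 12 lists (y axis, number tested in parentheses) at its interaction log2 fold change (x axis), filled where the adjusted p was under 0.05 and open where it was not, and the bar is the median of the list. The filled points of NRF2 targets, tubulins and keratins and sterol genes lie below 0 (medians -1.44, -1.15 and -1.01), and those of ribosome assembly lie above 0 (median 0.52).

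The same interaction can be read as a difference between the 2 ethanol effects. Over all tested genes, 5137 (39.8%) were called between the vehicle groups EtOH and PF, and 4633 (35.9%) between the MBV groups EtOH+MBV and PF+MBV. Of the 530, 375 were called with vehicle and 274 with MBV, and 64 of them were called in both with the same sign and 55 in both with opposite signs. In the ethanol diet class 131 of 152 were called with vehicle and 57 with MBV. In the control diet class 67 of 125 were called with vehicle and 91 with MBV. These comparisons use the libraries of the interaction itself, so their values stand side by side and are not separate evidence.

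Single genes show the forms. The ethanol effect on Clec14a was -2.19 with vehicle and -0.67 with MBV, and that on Akap12 was 3.23 and 0.34. For Krt8 it was 2.29 and 0.66, and for Srxn1 3.87 and 1.00. In these 4 genes of the ethanol diet class it was nearer to 0 with MBV. For Rrp12 it was 0.29 with vehicle and 1.79 with MBV, for Socs2 0.31 and 2.18, and for Gpam -0.18 and -1.24. These genes of the control diet class differed between the diets mainly where MBV was given. Other genes of that class did not: the effect was 2.79 with vehicle and 0.37 with MBV for Tubb2a, and -1.06 and 0.37 for Id2. Of the 125 genes of the class, 75 had a larger ethanol effect with MBV than with vehicle and 50 a smaller one. Onecut1 had -1.91 with vehicle and 1.38 with MBV, with opposite signs.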

How the data were processed

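Liver polyadenylated RNA of 16 mouse libraries was sequenced, and the authors deposited 1 table of read counts per gene for each library. Per the submitters' processing notes, reads were trimmed with Trimmomatic and aligned with STAR to mm10, whose versions the sources used here do not give. The unstranded of the 3 count columns was used, since the other 2 held near equal shares of the reads. Reads from overlapping and antisense genes can therefore not be told apart. The 4 summary rows that name no gene were left out of library sizes (unmapped 11.6 to 19.9%, multimapping 4.57 to 7.58%, no feature 9.40 to 10.9% and ambiguous 1.35 to 1.69%).

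The filter on low counts was filterByExpr of edgeR (minimum count 10), and 12901 of 24411 genes passed. Counts were scaled with TMM factors, fitted with edgeR 4.0.16 (R 4.3.3) in 1 model with a mean per group over all 16 libraries, and tested for the interaction and 4 simple contrasts with the quasi-likelihood test. The Benjamini-Hochberg adjustment ran over all genes tested. CPM used TMM-scaled library sizes. Tested on simulated counts for 12800 genes, the script recovered 33% of 2-fold and 81% of 4-fold interactions, with 6.56% of calls false. The simulated counts had 1 spread per gene in all 4 groups and no library that stands apart. Both points differ from these data, so the simulated shares may not hold for them.

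The comparison, its classes and the 58 gene lists were chosen with earlier results of these data known. The 63 genes named by rule, among called genes of at least 1 CPM in the highest group with predicted genes and pseudogenes left out, were the 8 largest interactions in each direction, the 4 smallest p-values in each class and the smallest p in each list. Other genes named as members of a list were chosen after their values were seen. Values of some genes that are counted in these sums and lists are not reported here. Gene positions are from Gencode M21 (GRCm38) by symbol, and promoters from RefSeq (GRCm38.p6). Alternatives were other scalings, filters and tools (DESeq2 1.42.0, limma 3.58.1), a replicate block and leaving out libraries, of which leaving out both that stand apart was chosen after seeing the data.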

Additional observations from a re-analysis of the deposited data

Results flagged for a closer look

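The change with MBV differed between the diets in 530 genes by the test of the difference itself, and the report gives their values.

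In 264 groups of 4 values (the CPM of 63 named genes, and the depth and first 2 principal components of the libraries), 26 held a library whose gap to its neighbour took up more of the group's range than Dixon's critical value allows. Chance gives such a gap in about 1 of 20 groups. EtOH 1 was that library in 7. Its levels were 31.4 CPM of Mmp12, 16.0 CPM of Ly6d, 267 CPM of Rsad2, 19.8 CPM of Atp2b2, 21.1 CPM of Cxcl10 and 43.1 CPM of Cd9, each the highest EtOH library, and 77.0 CPM of Gdf15, the lowest. EtOH+MBV 1 was it in 4, with the highest levels of Selenbp2 (388 CPM), C4a (148 CPM) and Onecut1 (26.8 CPM) and the lowest first component (-0.25).

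PF 2 was high in Capn8 (9.46 CPM) and Ngfr (4.26 CPM) and low in Eif4ebp3 (28.6 CPM) and on the second component (-6.65). PF 4 was high in Mmp12 (1.30 CPM), Abcc12 (0.124 CPM) and Slc4a9 (0.497 CPM), and PF 3 in Hist3h2a (3.64 CPM). EtOH 2 was high in Entpd5 (602 CPM) and low in Pparg (9.83 CPM), and EtOH+MBV 4 was high in Socs2 (43.6 CPM). PF+MBV 1 was high in Nr4a2 (2.65 CPM) and low in Slc2a1 (11.2 CPM), PF+MBV 4 was high in Ly6d (18.7 CPM), and PF+MBV 3 was high on the second component (-4.18).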

How the results depend on the processing

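The number of interacting genes (530, with 261 positive and 269 negative) was 547 with RLE size factors, 562 with upper-quartile factors, 469 without a filter on low counts, 556 with a filter at 1 CPM in 4 libraries, 461 with limma voom, 525 with voom and a weight per group and 512 with robust edgeR. DESeq2 called 1113 (541 positive, 572 negative), 529 of them among the 530. Leaving out 1 library gave 168 to 1088 genes, 78 to 547 positive and 76 to 541 negative, with 8 to 591 in the ethanol diet class, 33 to 394 in the control diet class, 0 to 25 in the opposite class, 76 to 348 in neither and 0 or 1 changed the same way on both diets. Without EtOH 1 and EtOH+MBV 1 it was 887 (428 positive, 459 negative), with 109 in the ethanol diet class, 426 in the control diet class, 8 opposite and 344 in neither. The opposite class held 2 with voom, 255 with unadjusted p-values and 275 by size, and neither held 0 in the last 2, where 2 genes changed the same way by unadjusted p. The cause of these shifts was not tested. For the 63 genes named by rule, the direction was kept in all 1635 values under these settings, and 271 of those values, 238 of them with 1 library left out, no longer passed. The 63 genes were picked by their interaction in these same data, so the kept direction was largely set by that choice. With the replicate number as a block the count was 514, with 430 of the 530 among them. The labels share replicate numbers only: same-numbered libraries of different groups correlated at -0.12 to 0.17 (3 of 24 over 0.1), and 0 of 16 libraries correlated best with their own number in all other groups, so the replicate block was not used. Depth limits genes under about 1 CPM, where a few reads set a value.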
